A study of Homo sapiens with 12 samples.

Results

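The genes described here set the activity of mechanistic target of rapamycin complex 1 (mTORC1), the kinase complex that couples cell growth to amino acids. There were 10 of them. The kinase MTOR and its scaffold RPTOR stood with the activator RHEB and its inhibitors TSC1 and TSC2. The others were the stress-induced inhibitors DDIT4 and SESN2, the lysosomal amino acid transporters SLC36A1 and SLC38A9, and the stress gene NIBAN1. Transcripts of the series could be assigned to 34318 genes, 9 of these 10 among them. All 10 were picked by function and by earlier results of these same data. SLC36A1 was chosen by its higher level after POLR3A siRNA, DDIT4 by its higher level with ML60218, and NIBAN1 was selected on its lower level after the siRNA, so those 3 values are given as descriptions without a test. A value could be had for 9 of the 10 genes. SESN2 was not analysed here.

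All 12 libraries came from HEK293T, a transformed human embryonic kidney line grown in high-glucose medium, as stranded sequencing of messenger RNA. The cell line label is the same for all 12, though the sample titles of the second experiment shorten the line's name. In the first experiment 3 libraries came from cells transfected with a control siRNA (siControl) and 3 from cells transfected with siRNA against POLR3A (siPOLR3A), the catalytic subunit of RNA polymerase III, 2 days before collection. In the second, 3 libraries came from cells given the vehicle dimethyl sulfoxide at 0.1% (DMSO) and 3 from cells given ML60218, a small-molecule inhibitor of RNA polymerase III, at 25 µM, 4 hours before collection. RNA polymerase III makes transfer RNAs and other short RNAs, and the study asked what its depletion or inhibition does to messenger RNA. The labels do not say that the 3 libraries of a group came from separate cultures, so the p-values measure the spread between these libraries, which may be technical. In these bulk samples, fewer cells of a kind and less RNA per cell cannot be told apart.

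Amino acids inside the lysosome and in the cytosol recruit mTORC1 to the lysosomal surface through the Rag GTPases and their anchor, the Ragulator complex. There the small GTPase RHEB switches the kinase on. The TSC1-TSC2 complex holds RHEB in its inactive form, and DDIT4 acts through that complex. SLC36A1 exports small neutral amino acids from the lysosome together with protons, and SLC38A9 senses arginine there. Active mTORC1 phosphorylates S6 kinase and the 4E-BP proteins, which raises translation, and keeps the transcription factors TFEB and TFE3 out of the nucleus, where they would turn on lysosomal genes.

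Start-site windows are shown for SLC36A1 and DDIT4, each chosen for a higher level in 1 of the experiments, and in part for TSC2, the only other member whose window held a motif searched for. The windows run from 250 bases before to 50 bases after a gene start, were taken from RefSeq on GRCh38.p14, and were present for all 10 members, 14 windows in all. Both strands were searched for CACGTG, the core of the element read by TFEB and TFE3, and for TGATGNAA, where N is any base, the core of the element read by ATF4. Of 35116 windows of this length over all genes, 7.26% held CACGTG, 0.664% held it at least 2 times, and 3.62% held TGATGNAA.
SLC36A1, chr5:151447353-151447652, plus strand, with CACGTG in capitals: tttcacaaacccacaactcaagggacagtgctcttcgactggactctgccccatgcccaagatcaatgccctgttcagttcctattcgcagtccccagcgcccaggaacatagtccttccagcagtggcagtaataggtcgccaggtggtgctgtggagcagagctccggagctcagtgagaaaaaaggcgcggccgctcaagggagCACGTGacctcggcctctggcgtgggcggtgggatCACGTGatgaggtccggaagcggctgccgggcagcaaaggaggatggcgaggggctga
DDIT4, chr10:72273674-72273973, plus strand, without either motif: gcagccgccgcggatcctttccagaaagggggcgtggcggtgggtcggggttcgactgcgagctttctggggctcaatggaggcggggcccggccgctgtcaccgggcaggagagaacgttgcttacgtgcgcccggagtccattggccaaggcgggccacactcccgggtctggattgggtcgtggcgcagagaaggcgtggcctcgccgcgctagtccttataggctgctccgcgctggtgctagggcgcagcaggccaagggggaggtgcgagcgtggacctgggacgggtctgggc
TSC2, chr16:2047851-2047902, plus strand, with CACGTG and TGATGNAA in capitals: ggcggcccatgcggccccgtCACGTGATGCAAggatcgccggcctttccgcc
The SLC36A1 window held 2 copies of CACGTG, which begin 43 and 8 bases before the gene start, while the window of an upstream SLC36A1 start held 0. In TSC2 the motifs overlap by 2 bases. None of the other windows, including those of DDIT4 and NIBAN1, held either motif. These are matches of letters, not measured binding sites.

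The 3′ untranslated region of NIBAN1 is shown for another reason. The 6-base word GAGGGA was picked from earlier results of these same data, and NIBAN1 was chosen for its lower level, so the shares that follow restate that choice and are no independent evidence. The word occurred in 67.3% of the 3′ untranslated regions of the 284 genes called lower by at least 2-fold after the siRNA, against 31.3% of the 5613 genes not called and 33.3% of the 234 genes called higher by at least 2-fold. These regions had median lengths of 1280, 893 and 885 bases. NIBAN1 is 1 of the 284 genes, and its region of 3947 bases held 4 copies, a number reached by 9.51% of the 284 genes and by 3.26% of all 13914 genes with such a region, whose regions are shorter (median 1061 bases). Each copy is printed in capitals with its neighbouring bases, read from GENCODE 29.
NIBAN1 site 1: cttggggtgaGAGGGAgctgaggatg
NIBAN1 site 2: gatgtctgagGAGGGAatagtattgc
NIBAN1 site 3: tcatgtctttGAGGGAtcccaccaca
NIBAN1 site 4: ttgtttgagcGAGGGAagttgaggct
Among the other members, TSC1 (4887 bases) and DDIT4 (848 bases) held 2 copies each, RHEB and SLC36A1 held 1 each, and MTOR, RPTOR, TSC2 and SLC38A9 held 0. The sequence of the siRNA is not given in the sources used here, and the part of this word in any change was not tested.

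The libraries held 37008325 to 49479476 estimated reads each, and the 9 measured members had 428 to 7928 of them per library. POLR3A, the target of the siRNA, fell from 90.8 ± 3.56 to 17.6 ± 2.65 CPM, read counts scaled to the TMM-adjusted library size (SD, n = 3 per group; log2 fold change −2.36 ± 0.108 SE, adjusted p = 1.94e-05). It also fell with ML60218, by a log2 fold change of −0.38 ± 0.0411 (adjusted p = 0.000229). Adjusted p-values here and below come from the quasi-likelihood test of edgeR with Benjamini-Hochberg adjustment over all genes tested, and a gene was called at an adjusted p under 0.05. The response was broad: 56.6% of 15404 genes were called after the siRNA (27.4% higher, 29.2% lower) and 39% of 15461 with ML60218 (18.1% higher, 20.9% lower). All 9 measured members passed the filter on low counts. Of 8 genes marking other cell types, PTPRC and HBB were listed at 0 TPM in all groups, 5 had group means of at most 0.67 TPM (CD14, PECAM1, CDH5, COL1A2, ALB), and COL1A1 was expressed at 19 to 26.3 TPM. Of the 8 markers of epithelial cells and of this line, LHX1 was low, at 8 to 78 reads per library (0.994 to 1.56 TPM). The others had group means of at least 1.57 TPM (EPCAM). Highest were KRT18 (25.5 to 35.4), CDH2 (43.8 to 61.7) and NEFM (35.7 to 92.2). Some markers moved with the siRNA. Of the 8 markers of the line 3 were called higher and 2 lower, among them EPCAM (0.9 ± 0.132, adjusted p = 4.64e-05) and NEFM (−1.39 ± 0.0646, 1.04e-05). Of the markers of other cell types, CD14 was called higher at a low level (0.16 to 0.67 TPM; adjusted p = 0.000129), as was COL1A1 (0.32 ± 0.0457, 3.68e-05). With ML60218 2 of the 8 were called higher and 1 lower, and neither CD14 nor COL1A1 was called. The part of these shifts in the results below was not tested.

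Levels were compared between genes on the deposited TPM scale, which also corrects for transcript length. In siControl cells DDIT4 (155 ± 14.7 TPM, SD, n = 3) and RHEB (148 ± 3.42) led, and their libraries overlapped. TSC2 followed at 73.4 ± 2.3, SLC38A9 at 34.4 ± 1.11, MTOR at 26 ± 1.24, TSC1 at 20.5 ± 1.52 and NIBAN1 at 12.1 ± 1.07 TPM. The scaffold RPTOR (7.07 ± 0.414) and SLC36A1 (6.12 ± 0.564) were the lowest, and apart from DDIT4 and RHEB no neighbours in this order overlapped. After POLR3A siRNA SLC36A1 stood at 20.3 ± 0.516 TPM, above TSC1 (19.1 ± 0.59) and RPTOR (11.5 ± 0.295), and NIBAN1 was last at 2.32 ± 0.177.

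**Figure D1:**
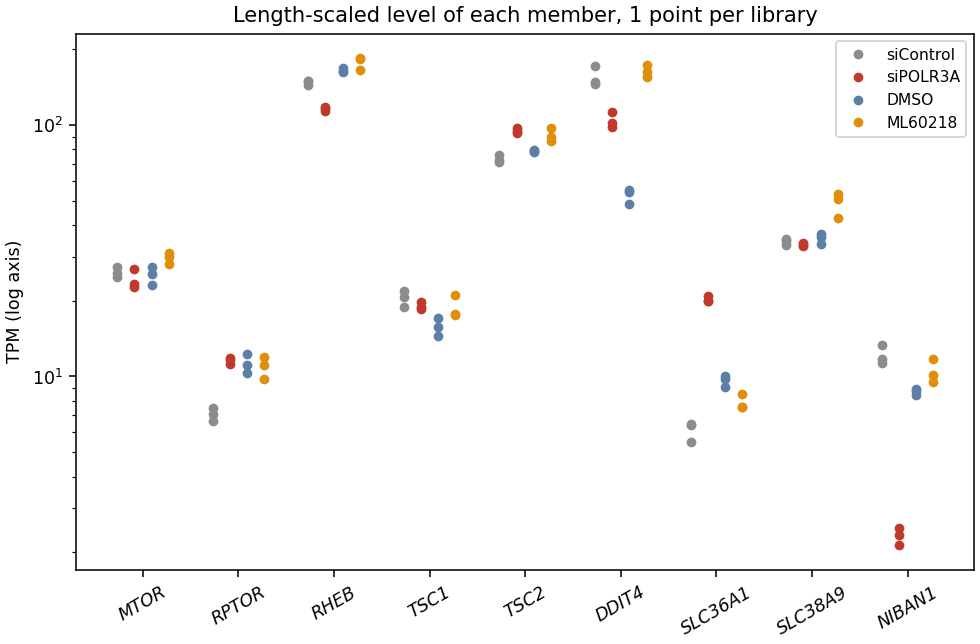
Level of the 9 measured members in TPM on a log axis, with 1 point for each of the 12 libraries, coloured by group. DDIT4 lies lowest in the DMSO libraries (52.7 TPM on average), SLC36A1 highest in the siPOLR3A libraries (20.3 TPM) and NIBAN1 lowest there (2.32 TPM).

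The control groups of the experiments were not alike for these genes. DDIT4 had 2.94 times the TPM in siControl that it had in DMSO (155 against 52.7), NIBAN1 1.39 times and TSC1 1.3 times. In siControl SLC36A1 was at 0.638 and RPTOR at 0.63 of its DMSO level, with smaller gaps for RHEB (0.899) and TSC2 (0.932). For 7 of the 9 members the 3 siControl and the 3 DMSO libraries did not overlap, beside 60.6% of the 13487 genes with a mean of at least 1 TPM in either group. MTOR (1.02) and SLC38A9 (0.969) overlapped. Transfection, time, handling and the stock of cells cannot be told apart in this gap, so each treatment is set only against its own control below. The level of DDIT4 with ML60218 (164 ± 9.48 TPM) overlapped that of siControl cells.

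After POLR3A siRNA, 8 of the 9 measured members were called, 3 higher and 5 lower, beside 56.6% of all genes. This contrast was used to choose SLC36A1 and NIBAN1. Among the other 7 members 6 were called, 2 higher (RPTOR, TSC2) and 4 lower (MTOR, RHEB, TSC1, DDIT4). The CPM of the 6 libraries did not overlap between the groups for any of these 7, against 63.4% of all genes. SLC36A1 and NIBAN1, chosen here, did not overlap either. The median log2 fold change of the 9, with the chosen members included, was −0.24, and that of all genes 0.00541.

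With ML60218, 6 of the 9 members were called, 4 higher and 2 lower, beside 39% of all genes, and this contrast was used to choose DDIT4. Among the other 8 members 5 were called, 3 higher (MTOR, TSC1, SLC38A9) and 2 lower (RPTOR, SLC36A1). The groups did not overlap for 6 of the 9, the chosen DDIT4 among them, against 51.9% of all genes. The median log2 fold change of the 9, with DDIT4 included, was 0.12, and that of all genes 0.00544. Using TPM in place of counts moved the median of all genes upward by 0.129 in this contrast, so small changes with ML60218 depend on the measure used.

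**Figure D2:**
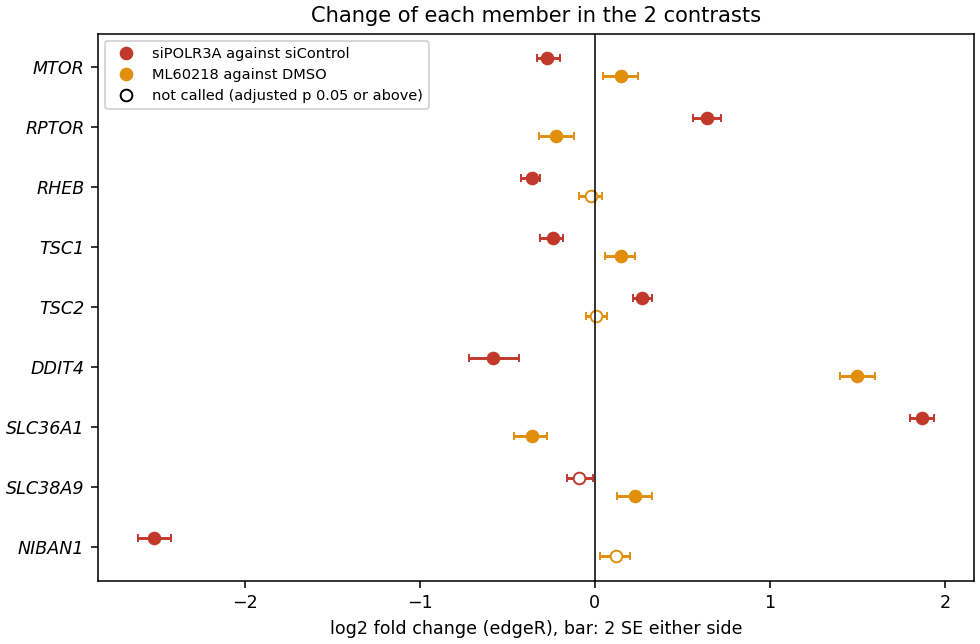
Log2 fold change of the 9 measured members after POLR3A siRNA and with ML60218, each against its own control, from edgeR. Bars reach 2 standard errors to either side, and open points were not called. SLC36A1 (1.87 and −0.36) and DDIT4 (−0.58 and 1.5) lie on opposite sides of 0 in the 2 contrasts, and NIBAN1 lies at −2.52 after the siRNA and 0.12 with ML60218.

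MTOR, the kinase itself (chromosome 1, 11106535 to 11262507, minus strand; positions here and below are GRCh38 with GENCODE 29), fell after the siRNA. The siControl libraries held 165, 168 and 154 CPM and the siPOLR3A libraries 135, 136 and 133 CPM. All 3 siPOLR3A libraries lay below all 3 controls (log2 fold change −0.27 ± 0.0312, adjusted p = 5.49e-06). On TPM the fall was −0.1 and not called (adjusted p = 0.259 in limma), and the share of MTOR TPM on its main transcript MTOR-201 was 78.6% ± 0.446 in siControl and 69.4% ± 7.75 in siPOLR3A. With ML60218 the levels were 163, 178 and 175 CPM against 164, 156 and 145 CPM with DMSO. The groups overlapped, and the rise of 0.15 ± 0.0496 (adjusted p = 0.0365) lost its call under 8 of 18 alternatives. These were leaving out DMSO replicate 2 (adjusted p = 0.0993), DMSO replicate 3 (0.139), ML60218 replicate 2 (0.124) or ML60218 replicate 3 (0.144), a replicate block (0.0734), the trend on GC content and length removed (0.153), unmatched neighbouring transcripts added (0.0527) and limma on TPM with no filter on low values (0.1).

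RPTOR, the scaffold that brings substrates to the kinase (chromosome 17, 80544819 to 80966371, plus strand), moved the other way from MTOR in both contrasts. It held 26.2, 28 and 27 CPM in siControl and 42.2, 42.7 and 41.9 CPM in siPOLR3A. That is a rise of 0.64 ± 0.0406 on the log2 scale, or 1.56-fold (adjusted p = 9.05e-09), with a wide gap between the groups. With DMSO it held 50.6, 47 and 45.9 CPM and with ML60218 39.7, 42.6 and 41.2 CPM. This fall of −0.22 ± 0.0505 (adjusted p = 0.0077) also separated the groups, but was not called with total counts (−0.15, adjusted p = 0.0624) or on TPM (−0.03, adjusted p = 0.823 in limma).

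RHEB, the direct activator of mTORC1 (chromosome 7, 151466012 to 151520120, minus strand), fell after the siRNA from 125, 127 and 131 CPM to 97.6, 99.3 and 101 CPM. The change was −0.36 ± 0.028 (adjusted p = 7.57e-08), and the groups were well apart. With ML60218 RHEB was not called: 136, 143 and 136 CPM stood against 141, 139 and 143 CPM with DMSO. The log2 fold change was −0.02 (2 SE: −0.09 to 0.04; adjusted p = 0.602), and the libraries of the groups were interleaved. Its reads were spread over RHEB-201 and RHEB-204, which held 38.6% ± 1.61 and 52.4% ± 2.09 of its TPM in siControl and 39.1% ± 1.54 and 52.1% ± 4.37 in siPOLR3A, so both transcripts were lower by a like amount.

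TSC1 (chromosome 9, 132891348 to 132946874, minus strand) and TSC2 (chromosome 16, 2047465 to 2089487, plus strand), the partners that restrain RHEB, moved in opposite directions after the siRNA. TSC1 held 73.5, 73.3 and 73 CPM in siControl and 59.3, 63.1 and 63.3 CPM in siPOLR3A. It fell by 0.24 on the log2 scale (SE 0.0327, adjusted p = 2.02e-05), though on TPM the fall was −0.1 and not called (adjusted p = 0.215 in limma). TSC2 held 115, 113 and 110 CPM in siControl and 135, 138 and 135 CPM in siPOLR3A. Its rise was 0.27 ± 0.0268 (adjusted p = 8.93e-07), and 0.14 with the trend on GC content and length removed (adjusted p = 0.000164). Neither pair of groups overlapped.

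With ML60218 these partners changed little. TSC1 held 60.1, 57.4 and 59.7 CPM with DMSO and 64.5, 63.5 and 68.2 CPM with ML60218, all higher than the controls. The rise of 0.15 ± 0.0424 (adjusted p = 0.0199) lost its call under 6 of 18 alternatives: without DMSO replicate 2 (adjusted p = 0.0944), without DMSO replicate 3 (0.0577), with the trend on GC content and length removed (0.217) and in the 3 limma fits on TPM (0.0753 to 0.163). TSC2 was not called, at 121, 123 and 122 CPM against 121, 119 and 122 CPM with DMSO (log2 fold change 0.01, 2 SE: −0.05 to 0.07, adjusted p = 0.797). On TPM, where the median of all genes is 0.119 in this contrast, TSC2 was called higher by 0.2 (adjusted p = 0.0195 in limma).

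DDIT4, also known as REDD1 (chromosome 10, 72273920 to 72276036, plus strand), is induced by many stresses, ATF4 among their mediators, and restrains mTORC1 through TSC2. With ML60218 it held 161, 161 and 165 CPM, against 59.1, 52.4 and 61 CPM with DMSO. This 2.83-fold higher level (log2 1.5 ± 0.0522) is the value that DDIT4 was selected on, and it ranks at percentile 99.6 among all genes. After POLR3A siRNA, which played no part in that choice, DDIT4 held 126, 111 and 115 CPM against 188, 173 and 164 CPM. It fell by 0.58 on the log2 scale (SE 0.0707, adjusted p = 0.000992), with no overlap and with adjusted p up to 0.00639 over 18 alternatives. The spliced transcript DDIT4-201 held 86.2% ± 0.644 to 90.1% ± 1.58 of the TPM in the 4 groups, so the gene's level was mainly that of 1 transcript.

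The 5 reference genes of the ATF4 response were set beside DDIT4. With ML60218 4 of 5 were called higher and 0 lower: CHAC1, a glutathione-degrading enzyme (3.15 ± 0.108, adjusted p = 6.29e-07), ATF3 (2.28 ± 0.217, 0.00222), DDIT3 (2.1 ± 0.0864, 1.51e-06) and the asparagine synthetase ASNS (1.01 ± 0.0427, 1.51e-06). The messenger RNA of ATF4, a factor controlled largely by translation, was not called (0.14 ± 0.0921, adjusted p = 0.257). It was called higher under 3 of 18 alternatives. Among them were unmatched neighbouring transcripts added (0.36, adjusted p = 0.000163) and limma on log2(TPM + 1). After the siRNA only ATF4 was called among the 5 (0.18 ± 0.0452, adjusted p = 0.00406), and its direction reversed to −0.23 (0.000306) when unmatched transcripts next to the gene were added. ASNS was at 0.06 there, DDIT3 at 0.19, CHAC1 at 0.47 and ATF3 at −0.23, and each of these was called under some alternatives. CHAC1 was at 0.8 without siControl replicate 2 (adjusted p = 0.000639), and was called in 2 limma fits on TPM. DDIT3 was at 0.3 without siControl replicate 1 (0.0197), at 0.27 without siPOLR3A replicate 2 (0.0485), and was called with a replicate block (0.0497). ASNS was called higher under 5 of 18 alternatives (0.11 to 0.15), and ATF3 lower with a replicate block (−0.22, 0.00357). The genes with the pattern most like that of DDIT4 over the 12 libraries were JDP2, LRRC8D and JUN. Their root mean square differences were 0.169, 0.215 and 0.22 log2 units, against a median of 0.824 over 12100 protein-coding genes. The ML60218 values that DDIT4 was chosen on are part of this likeness, which is no independent evidence.

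SLC36A1, which carries amino acids and protons out of the lysosome, lies on chromosome 5 (151437046 to 151492381, plus strand). It held 72.5, 72.5 and 72.2 CPM in siPOLR3A against 19.7, 19.6 and 20.1 CPM in siControl. This 3.65-fold higher level (log2 1.87 ± 0.0342) was used to choose it, and ranks at percentile 99.7 among all genes. With ML60218, a contrast not used in that choice, SLC36A1 held 27, 25.1 and 25.5 CPM against 33.5, 32.8 and 33.4 CPM with DMSO. It fell by 0.36 on the log2 scale (SE 0.0481, adjusted p = 0.000541), all 3 libraries below all 3 controls. That call was lost only in limma on TPM with no filter on low values (−0.25, adjusted p = 0.0821), among 18 alternatives.

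Nearly all SLC36A1 reads (94.3% to 99.3% per library) fell on SLC36A1-201, whose start lies in the window with the 2 copies of CACGTG. Its level was 4.6 ± 0.114 TPM in siControl, 17.6 ± 0.0951 in siPOLR3A, 8.16 ± 0.144 in DMSO and 6.98 ± 0.198 in ML60218. The gene's pattern was thus that of this transcript in all 4 groups. The most similar genes over the 12 libraries were MAPK8IP2, NTN1 and STMN3, with a root mean square difference of 0.0718, 0.116 and 0.189 log2 units, against a median of 0.957. The siRNA values that SLC36A1 was chosen on are part of this likeness, which is no independent evidence. MAPK8IP2 showed log2 fold changes of 1.98 after the siRNA and −0.27 with ML60218.

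SLC38A9, the lysosomal arginine sensor (chromosome 5, 55625845 to 55773194, minus strand), was not called after the siRNA. It held 38.2, 38.8 and 41.1 CPM in siControl and 37.2, 36.9 and 37.3 CPM in siPOLR3A. The groups did not overlap, but the gap was small (log2 fold change −0.09, 2 SE: −0.16 to −0.01, adjusted p = 0.0762). With ML60218 it rose from 43.7, 42.4 and 42.1 CPM to 46.8, 51.4 and 52.4 CPM (0.23 ± 0.0507, adjusted p = 0.00565), and kept that call under all 18 alternatives. The transporters that share this membrane thus parted with ML60218, SLC38A9 higher and SLC36A1 lower.

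NIBAN1, also known as FAM129A (chromosome 1, 184790724 to 184974550, minus strand), is a stress gene linked to translation control and to phosphorylation of mTORC1 targets. It held 12.7, 11.6 and 12.8 CPM in siPOLR3A against 74.1, 69.4 and 68.5 CPM in siControl, at 0.175 of the control level (log2 −2.52 ± 0.0482), the value it was selected on. Its percentile among all genes was 0.0584. With ML60218 it was not called at 52.7, 52.8 and 56 CPM against 49.5, 50.6 and 49.2 CPM. The groups did not overlap, and the log2 fold change was 0.12 (2 SE: 0.03 to 0.2, adjusted p = 0.051). NIBAN1 was called under 6 of 18 alternatives (adjusted p from 0.013), and was at 0.03 with the GC and length trend removed (0.485). Its closest matches over the 12 libraries were TCEAL4, TCEAL3 and POLR3A itself, at 0.106, 0.166 and 0.28 log2 units (median of all genes 1.24). The siRNA values that NIBAN1 was chosen on are part of this likeness, which is no independent evidence. With ML60218 POLR3A was at −0.38, where NIBAN1 was at 0.12. Of the Niban family, NIBAN2 fell after the siRNA (−0.56 ± 0.0357, adjusted p = 1.09e-08), and NIBAN3 was at −0.03.

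**Figure D3:**
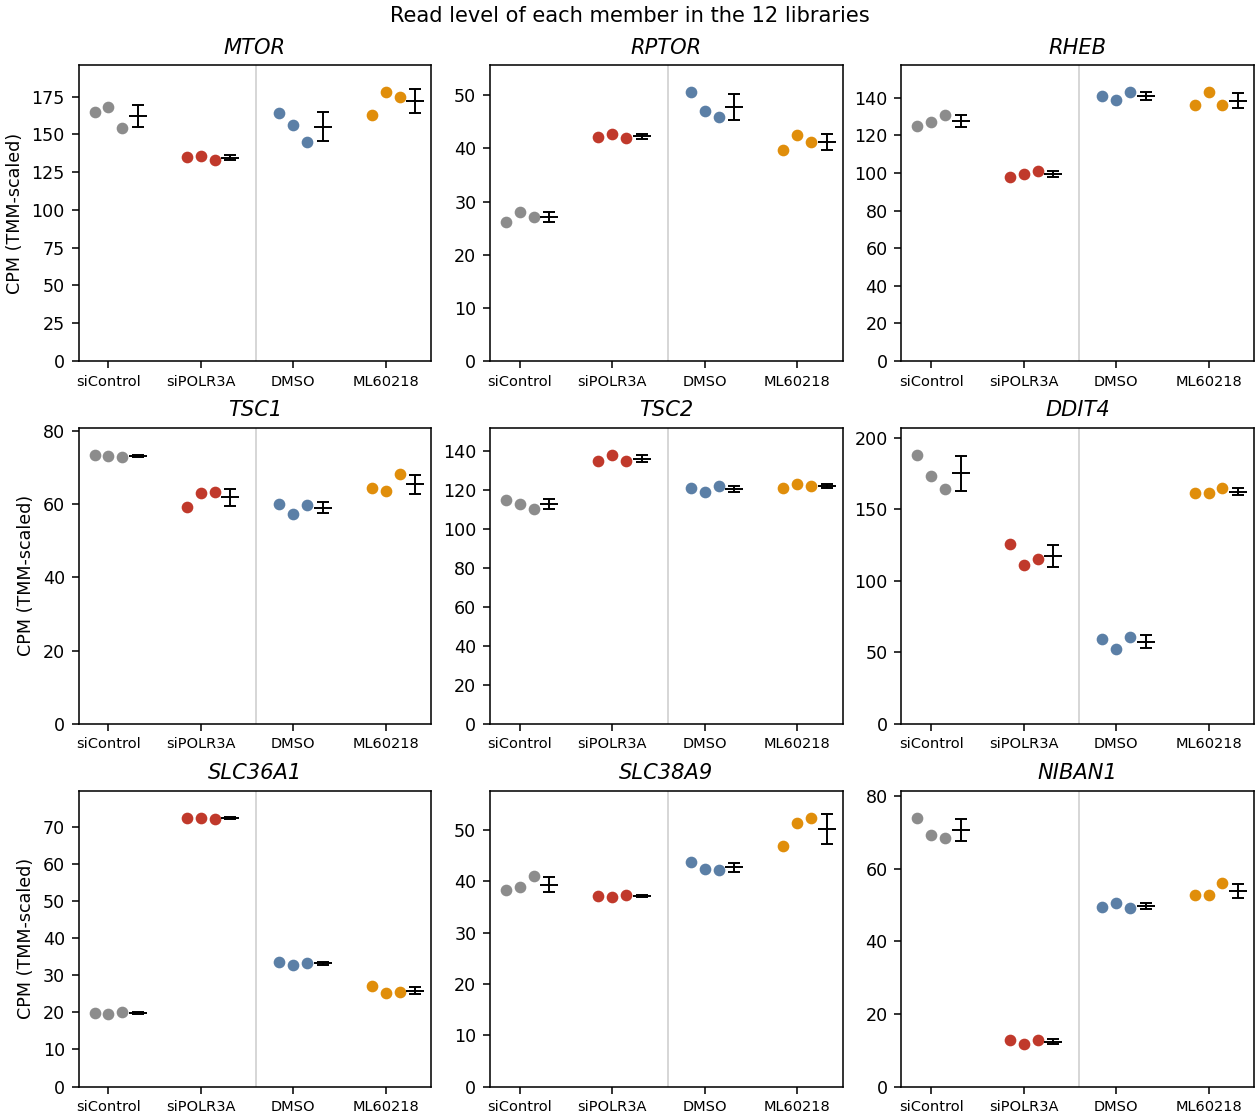
CPM of the 9 measured members in each of the 12 libraries, with the mean and SD of each group (n = 3) as a black bar and a line between the experiments. The siPOLR3A libraries of SLC36A1 sit at 72.2 to 72.5 CPM, against 19.6 to 33.5 CPM in the control groups, and those of NIBAN1 at 11.6 to 12.8 CPM.

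The log2 fold change with ML60218 was then subtracted from that after the siRNA, in a fit over all 12 libraries. This difference was called for 50.9% of 15780 genes. All 6 members not selected on either effect differed: RPTOR by 0.87 ± 0.0629 (adjusted p = 1.84e-08), TSC2 by 0.27 ± 0.0387 (3.06e-05), MTOR by −0.41 ± 0.0642 (7.4e-05), TSC1 by −0.39 ± 0.0532 (1.8e-05), RHEB by −0.33 ± 0.0428 (8.89e-06) and SLC38A9 by −0.31 ± 0.0637 (0.000666). The selected members gave 2.24 for SLC36A1, −2.07 for DDIT4 and −2.63 for NIBAN1. MTOR, RPTOR, TSC1, DDIT4 and SLC36A1 were called in both contrasts, each in opposite directions, as were 53.1% of the 3973 genes called in both. For DDIT4 and SLC36A1 1 of the directions was fixed by their choice. The ML60218 calls of the others were lost under 8 (MTOR), 6 (TSC1) and 4 (RPTOR) of 18 alternatives. Agent, duration and type of control all differ between the experiments and cannot be told apart.

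The pathway around the members was followed in 118 further genes, listed by role, of which 117 were tested (SLC15A3 did not pass the filter on low counts). After the siRNA 80 of them (68.4%) were called, 44 higher and 36 lower, beside 56.6% of all genes. With ML60218 59 (50.4%) were called, 15 higher and 44 lower, beside 39% of all genes. This split moved with the setting, and so did that of all genes. With total counts it was 22 and 22, beside 3889 and 1919 of 15461 genes. With upper quartile scaling it was 18 and 30, beside 3448 and 2435. On TPM it was 21 and 10, beside 3355 and 738 of 13532 genes.

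Counts by role are given beside the share of all genes called, which was 27.4% higher and 29.2% lower after the siRNA, and 18.1% and 20.9% with ML60218. Under other settings the counts over all genes moved as well. After the siRNA 5010 were higher and 3786 lower of 15404 with total counts, and 5229 and 3672 with upper quartile scaling. On TPM they were 3410 and 3251 of 13642, and with the trend on GC content and length removed 4242 and 4427 of 15404. No test of a role was made. The GATOR and KICSTOR complexes and their amino acid sensors act upstream of the Rag GTPases. Of these 18 genes 11 were called higher and 3 lower after the siRNA (median 0.25, against 0.00541 over all genes). Under the other scalings and on TPM 10 to 13 were higher and 2 or 3 lower. CASTOR2, a partner in arginine sensing, rose by 0.98 ± 0.043 (adjusted p = 2.05e-10), the S-adenosylmethionine sensor BMT2 by 0.82 ± 0.0359 (1.92e-10) and the sestrin SESN3 by 0.57 ± 0.0327 (5.37e-09). With ML60218 3 were called higher and 2 lower of the 18. The KICSTOR subunit KICS2 rose by 0.9 ± 0.0899 (adjusted p = 0.00022), where after the siRNA it fell by 0.25 (SE 0.0648, 0.00493).

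The Rag GTPases, Ragulator and folliculin hold mTORC1 at the lysosome. Of these 12 genes 7 were called lower and 2 higher with ML60218 (median −0.17). The number lower was 5 with total counts and with upper quartile scaling, where 1919 and 2435 of all 15461 genes were lower. On TPM 4 were lower and 1 higher (median −0.004, against 0.119 over all genes), beside 738 lower and 3355 higher of 13532 genes. The Ragulator subunits LAMTOR5 (−0.48 ± 0.0782, adjusted p = 0.00232), LAMTOR1 (−0.47 ± 0.0645, 0.000646) and LAMTOR4 (−0.44 ± 0.0548, 0.000396) kept their calls under all 18 alternatives. After the siRNA the same list gave 2 higher and 6 lower, with LAMTOR1 at −0.86 ± 0.0494 (3.56e-09), LAMTOR3 at 0.47 ± 0.054 (1.12e-05) and FNIP2, a partner of folliculin, at −0.46 ± 0.0318 (2.65e-08).

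The V-ATPase is the proton pump that acidifies the lysosome. After the siRNA, 8 of its 16 genes were called higher and 2 lower (median 0.135), but 12 and 1 with upper quartile scaling and 11 and 1 with total counts. The largest rises were those of ATP6V0A1 (0.51 ± 0.0296, adjusted p = 3.91e-09) and ATP6V1B2 (0.35 ± 0.0268, 7.72e-08). With ML60218 12 were called lower and 1 higher (median −0.18), led by ATP6V0E1 (−0.76 ± 0.0998, adjusted p = 0.00172) and ATP6V0B (−0.37 ± 0.0534, 0.000759), with ATP6V0A2 higher (0.36 ± 0.0345, 0.000164). The number lower was 7 with total counts, 9 with upper quartile scaling and 2 on TPM. Over all genes it was 1919 and 2435 of 15461, and 738 of 13532 on TPM. Short transcripts in general were called lower more often with ML60218, 24.8% of the 5156 genes with the shortest leading transcripts (median 1396 bases) against 16.2% of the 5150 with the longest (median 5566.5 bases), and the leading transcripts of the pump had a median of 1926 bases. With the trend on GC content and length removed, 10 of the 16 were called lower (median −0.147), beside 3141 of 15461 genes. The part of transcript length in these changes was not tested.

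**Figure D4:**
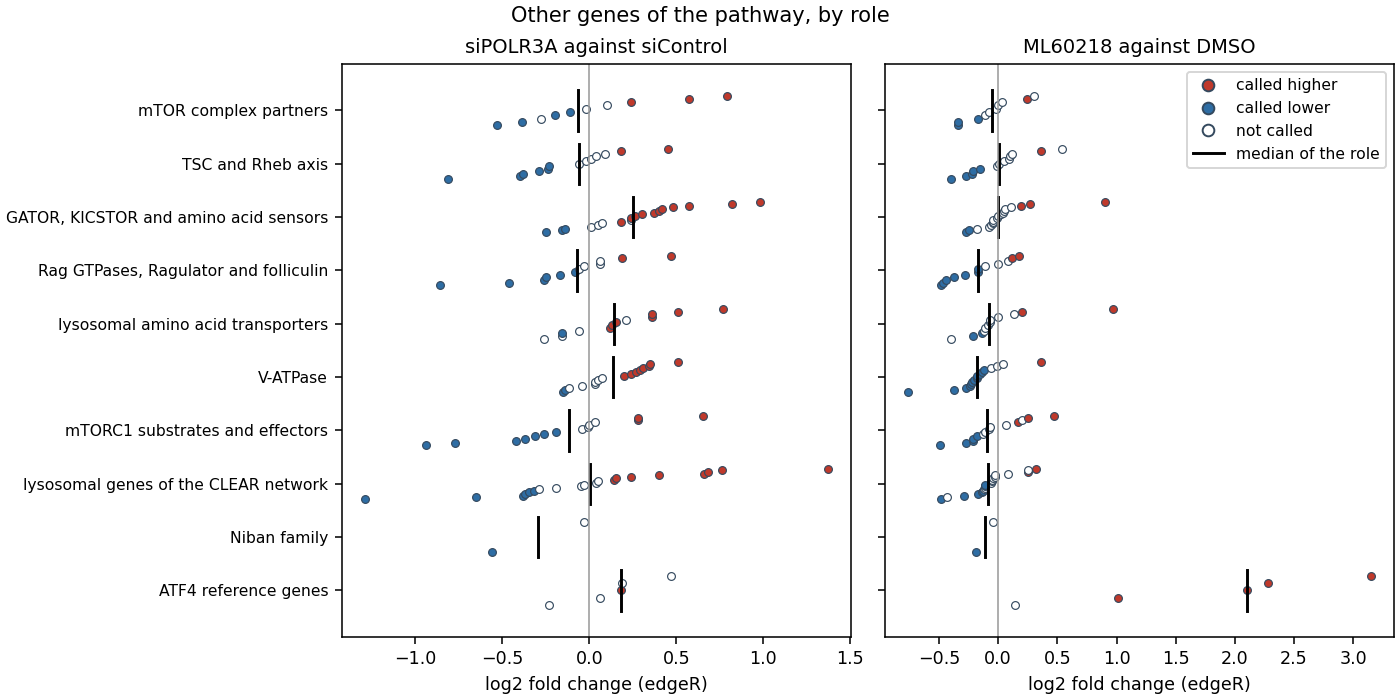
Log2 fold change of the 117 tested further genes of the pathway and 5 ATF4 reference genes, by role, after POLR3A siRNA (left) and with ML60218 (right). Points are genes, filled where called, and a black line marks the median of a role. The V-ATPase medians lie at 0.135 on the left and −0.18 on the right, and the ATF4 reference genes reach 3.15 on the right.

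Of 12 further transporters tested, 7 were called higher and 1 lower after the siRNA. The list holds SLC7A5 and SLC3A2, the chains of a leucine transporter best known from the plasma membrane. Both were among the 7, at 0.12 and 0.15. With the trend on GC content and length removed both calls were lost, and SLC7A5 was at −0.03. The SLC3A2 call was lost under 5 of 18 alternatives, limma on TPM and a fit of all 12 libraries (adjusted p = 0.421) among them. The other 10, relatives of SLC36A1 and lysosomal transporters of amino acids, peptides, nucleosides or sialic acid, gave 5 higher and 1 lower. The glutamine exporter SLC38A7 rose by 0.51 ± 0.0482 (adjusted p = 6.46e-07). The cystine exporter CTNS rose by 0.77 ± 0.226 (0.0308). This call was lost without siControl replicate 2 (adjusted p = 0.0792), siControl replicate 3 (0.0659) or siPOLR3A replicate 2 (0.0744). It was also lost with a replicate block (0.155) and with no filter on low counts (0.0811). With ML60218 the 10 gave 0 higher and 2 lower. Those falls, SLC36A4 (−0.14) and SLC38A7 (−0.21), lost their calls under 9 and 10 of 18 alternatives. Total counts, upper quartile scaling and TPM were among these. Both leucine transporter chains were called higher. The heavy chain SLC3A2 rose by 0.97 ± 0.193 (0.0191), a call lost without DMSO replicate 1 (adjusted p = 0.0703), 2 (0.0694) or 3 (0.0705), without ML60218 replicate 2 (0.0554) and with a replicate block (0.0536). The light chain SLC7A5 rose by 0.2 ± 0.0348 (0.00176).

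Lysosomal genes of the network driven by TFEB and TFE3 were called in both directions after the siRNA. Of 20 genes, 8 were called higher and 6 lower (median 0.005). The galactosidase GLA rose by 0.76 ± 0.0284 (adjusted p = 4.08e-11), while the membrane protein LAMP1 fell by 1.29 on the log2 scale (SE 0.0433, 1.37e-11). With ML60218 2 were called higher and 7 lower (median −0.085), but 3 and 1 with total counts, beside 3889 and 1919 of 15461 genes. CTSA was at −0.48 ± 0.0485 (0.000191) and SGSH at 0.32 ± 0.0645 (0.00395).

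Among 14 substrates and effectors of mTORC1, 3 were called higher and 7 lower after the siRNA (median −0.115). With the trend on GC content and length removed the split was 2 and 9 (median −0.203), and on TPM 3 and 5 (median −0.057). RPS6KB1, which encodes S6 kinase, fell by 0.94 (SE 0.0263, adjusted p = 2.13e-12) and TFE3 by 0.42 (SE 0.0417, 1e-06), while the adaptor GRB10 rose by 0.65 ± 0.0323 (7.02e-10). MAF1, a repressor of RNA polymerase III that mTORC1 phosphorylates, rose by 0.28 ± 0.038 (2.52e-05) after the siRNA and fell by 0.27 (SE 0.0452, 0.00145) with ML60218, a fall not called on TPM. With ML60218 3 of the 14 were called higher and 5 lower. The autophagy kinase ULK1 fell by 0.49 (SE 0.0524, 0.000221) and MITF, a relative of TFEB, rose by 0.47 ± 0.07 (0.000941).

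Of 10 partners of mTOR 3 were called higher and 4 lower after the siRNA, with the mTORC2 subunit MAPKAP1 at 0.79 ± 0.0375 (adjusted p = 4.33e-10), TELO2 at 0.57 ± 0.0379 (1.71e-08) and TTI1 at −0.53 ± 0.0364 (2.15e-08). TELO2 and TTI1 act together in the assembly of mTOR complexes, and here moved apart. Of 13 genes around TSC and RHEB 2 were called higher and 6 lower, with PRKAG1, a subunit of the energy sensor AMPK, at −0.81 ± 0.039 (5.11e-10), PRKAA2, a catalytic subunit of AMPK, at −0.4 ± 0.0369 (6.4e-07) and the kinase PDPK1 at 0.45 ± 0.0297 (1.51e-08). With ML60218 the partners gave 1 higher and 3 lower, among them the mTORC1 inhibitor AKT1S1 (−0.34 ± 0.0564, 0.00144). The genes around TSC and RHEB gave 1 higher and 5 lower. On TPM they gave 5 higher and 0 lower, beside 3355 higher and 738 lower of 13532 genes.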

How the data were processed

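The deposited table gives, per the file headers, an estimated count (NumReads) and a TPM for 194142 transcripts in 12 libraries. The submitters' processing notes name bcl2fastq 2.20, Trim Galore, DESeq2 and hg38; the quantifier and annotation are not given in the sources used here. Transcripts were assigned to genes by GENCODE 29 identifiers (81.6% matched; 8.37% to 8.97% of reads per library did not) and both deposited values, estimated counts and TPM, were summed per gene. Counts were rounded and tested in edgeR 4.0.16 (TMM scaling, filterByExpr, robust quasi-likelihood) in R 4.3.3, each contrast on its own 6 libraries and the difference on 12; SE is the fold change over the square root of F. Alternatives used DESeq2 1.42.0, limma 3.58.1 on log2(TPM + 1), other scalings and filters, left-out libraries and, added after seeing the data, a GC and length trend removed. The code was tested on simulated data. Named genes: all members; per role at most 3 called genes with the largest change (one that this rule selects is not reported here); likeness by root mean square difference of log2 CPM from the experiment's own control mean. The members and lists were chosen with earlier results of these data known. Depth limits precision only through the read numbers given.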

Additional observations from a re-analysis of the deposited data

How the results depend on the processing

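Under 18 alternatives per contrast (23 for the difference), no called value of a member changed direction. With ML60218 the genes called fell from 6029 to 2258 in limma on TPM with no filter on low values, and the further pathway genes called fell from 59 to 31 with log2(TPM + 1), 31 with log2(TPM + 0.1) and 21 with no TPM filter. Leaving out 1 library at a time gave 38 (without DMSO replicate 2) to 58 of these pathway genes. After the siRNA the counts stayed at 5895 to 9163 genes and 63 to 87 pathway genes, and the difference at 5676 to 8408 genes. Of all called genes, 46.4% were higher with ML60218, 67% with total counts, 58.6% with upper quartile scaling and 82% on TPM; after the siRNA these shares were 48.4%, 57%, 58.7% and 51.2%. Deviations from the group mean correlated at −0.206 to 0.0673 between control and treated libraries of the same replicate number. Between different numbers the correlations were −0.163 to 0.275. With 3 libraries per group these values cannot settle whether the numbers pair the samples. A replicate block called 8493, 5393 and 7658 genes in the contrasts and the difference. It ended the call of MTOR with ML60218 (adjusted p = 0.0734) and of no other member. SLC36A1 after the siRNA ranged from 1.58 to 1.93, NIBAN1 from −2.54 to −1.98 and DDIT4 with ML60218 from 1.44 to 1.63 on the log2 scale. Changes under about 0.2 with ML60218 are near the shift of the median on TPM (0.129), a setting that also changes the length correction and the fit. Changing only the scaling of counts shifted the median by 0.0708 at most (total counts). The cause of these shifts was not tested.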

Other observations

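The transcripts of RPTOR held different shares in the 2 experiments. RPTOR-203 held 15% ± 1.5 of the gene's TPM in siControl and 18.6% ± 5.24 in siPOLR3A, but 3.24% ± 3.11 in DMSO and 2.67% ± 0.854 in ML60218 (SD, n = 3 each). The main transcript RPTOR-201 held 65.5% ± 5.27 and 64.5% ± 2.63 in the siRNA experiment, against 86.2% ± 2.58 and 80.6% ± 7.43 in the other. RPTOR-208, annotated as a target of nonsense-mediated decay, was at 0 to 0.738 TPM in siControl and 0.957 to 1.35 in siPOLR3A. It was at 0.566 to 0.999 TPM in DMSO and 1.02 to 1.31 in ML60218, a narrow gap. On log2(TPM + 1) the median change of all genes was 0.119 in that contrast. How many other transcripts were apart in this way was not counted. RPTOR-208 held 5.57% ± 5.05 of the TPM in siControl and 10.1% ± 1.8 in siPOLR3A, while the whole gene rose from 7.07 to 11.5 TPM. It held 6.9% ± 1.87 in DMSO and 10.3% ± 0.724 in ML60218. These shares are estimates for transcripts that share most of their sequence, and no test was made.

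TSC1 and TSC2 were spread over many annotated transcripts, with reads on 40 of 47 and 50 of 69. TSC1-215 held 12.1% ± 7.8 of TSC1 TPM in siControl and 24% ± 1.51 in siPOLR3A, and TSC1-233 held 16.9% ± 9.37 and 7.39% ± 3.87. The spread within siControl is wide for both.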
